A study of Oryza sativa with 14 samples.

Results

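Leaf transcripts of rice grown on hairy vetch green manure were compared with those of rice grown on chemical fertilizer in the 2024 season, using 3 RNA-seq libraries per treatment. These 6 libraries were chosen by their labels, which give the treatment, the year and the replicate number, out of 14 libraries in the series. The other 8 come from the 2023 season and enter only the comparison between years. All plants were wild type Koshihikari, a japonica rice cultivar, and all were raised in nursery trays in a field given 19 kg of nitrogen, 19 kg of PO4 and 19 kg of K per hectare before transplanting. The chemical fertilizer plots of 2024 were dressed before planting with N (56 kg per hectare), PO4 (176 kg), K (56 kg), Mg (90 kg) and SiO2 (120 kg). The green manure plots received no chemical fertilizer. They had carried hairy vetch (Vicia villosa), a legume cover crop sown at 60 kg of seed per hectare over 2 sowings, which was ploughed in before rice was planted. The largest leaf of vegetative plants was taken 38 days after transplanting, and each leaf is 1 biological replicate. The labels do not give the number of plots that the leaves of each treatment came from. Treatment and field therefore cannot be told apart, and a p-value here reflects only the spread between these leaves.

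A legume cover crop holds nitrogen fixed by its root nodules, and soil microbes release that nitrogen after the crop is ploughed in. A rice leaf takes up nitrate and ammonium through membrane transporters, reduces nitrate, and fixes ammonium into glutamine and glutamate, while asparagine and the ureide allantoin are stores from which it can recover nitrogen. Much leaf nitrogen sits in chloroplast proteins. Plastocyanin and the copper/zinc superoxide dismutases are among the main copper proteins of a leaf, and not all of these dismutases sit in the chloroplast. In plants short of copper, the microRNAs miR398 and miR408 are known to lower transcripts of dispensable copper proteins.

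The 6 libraries held between 13224671 and 23367369 reads counted on exons. Levels are given as CPM (read counts relative to library size) scaled by the TMM method, in the order of replicates 1, 2 and 3. Differences are log2 fold changes of green manure against chemical fertilizer with their standard error, from edgeR's quasi-likelihood test, and a gene was called where its Benjamini-Hochberg adjusted p over all tested genes was under 0.05. The leaf label was checked with 6 mesophyll markers. These, 3 Rubisco small subunit genes, CAB2R, Rubisco activase and plastid glutamine synthetase, summed to between 74009 and 74411 CPM with chemical fertilizer and between 88132 and 129438 CPM with green manure. Of these 6, 3 were called. Of the markers of other tissues, 5 root genes summed to between 16.6 and 21.4 CPM with chemical fertilizer and between 22.9 and 29.4 CPM with green manure, so these sums did not overlap, and their part in the results was not tested. The 4 genes of dividing cells and meristem summed to between 11.2 and 11.8 CPM and between 11.5 and 13.4 CPM, and 3 reproductive shoot genes to between 2.39 and 3.58 CPM and between 2.3 and 5.61 CPM. Of the 12, 7 had enough reads to be tested, 2 of them root genes, and 0 of the 7 were called. The root markers OsLsi2 and OsNRT2.1 and the meristem marker OSH1 were at 0 in all 6 libraries. In whole leaves, fewer cells of a type and less RNA per cell cannot be told apart.

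Green manure replicate 1 stood apart from its group. Its Spearman correlation over genes was 0.9789 and 0.9829 with the other green manure libraries, against 0.9838 with chemical fertilizer replicate 3. On the first principal component, which held 42.1% of the variance, it lay at -4.34, between the chemical fertilizer libraries at 19.69 to 30.05 and the other green manure libraries at -47.27 and -21.3. On the second, which held 23.9%, it lay at 40.46, outside both groups, and the other 5 libraries lay between -27.12 and 5.68. Counts of called genes without it are given over all genes, and for each list below whose count then moved by over 1.5 times. Each library was also left out in turn. Without any 1 of the other 5 libraries between 162 and 352 genes were called, and the genes that then lost their call are named with their group.

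Of 19261 genes tested, 364 were called higher with green manure (1.89%) and 262 lower (1.36%). Together these 626 genes are 3.25% of those tested, and 22.6% of tested genes showed no overlap between the libraries of both groups. None of the 626 called genes showed an overlap. Without green manure replicate 1 there were 960 higher (4.88% of 19658 tested) and 643 lower (3.27%). The median log2 fold change over all tested genes was 0.00 with TMM scaling and -0.21 with plain library totals, so values near 0.2 change sign with the scaling. Plain totals gave 203 higher and 985 lower. With them some lists that had 0 lower calls gained them, among them 1 for the Calvin cycle, 1 for copper, 2 for iron and zinc, 1 for cytokinin and 5 for potassium and silicon. Medians that lay above 0 and under 0.21 with TMM scaling lay below 0 with plain totals, as for the Calvin cycle (-0.04), copper (-0.06), sulfur (-0.06) and proline and aspartate lists (-0.03). The chlorophyll synthesis, light-harvesting and photosystem lists kept 0 lower calls and medians of 0.25, 0.56 and 0.37. The shares called in each gene list are read below against these background shares, and medians against 0.00.

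**Figure D1:**
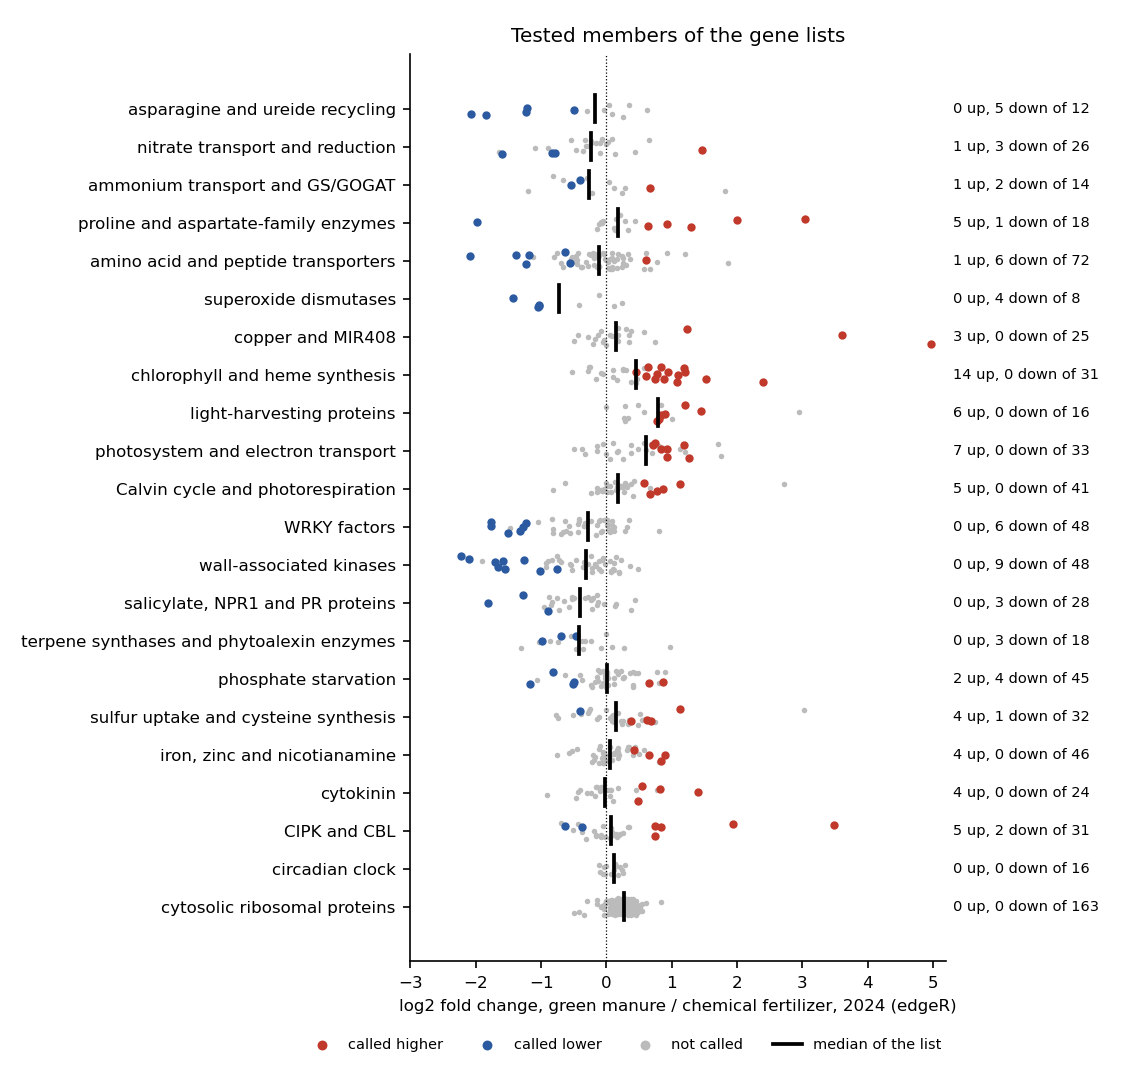
Each point is a tested member of a gene list, placed by its log2 fold change (green manure against chemical fertilizer, 2024). Red points were called higher, blue points lower and grey points were not called. Black bars are list medians, and the dotted line is the median of all tested genes. The called superoxide dismutases, wall-associated kinases and WRKY factors are all blue, and the called members of the chlorophyll, light-harvesting and photosystem lists all red. Each of these lists also holds grey points, and some other lists have calls of a single colour too.

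In nitrate transport and reduction, a transporter of the NRT2 family, a nitrate reductase and NRT1.5A fell with green manure and a transcription factor rose. These are 3 lower (11.5%) and 1 higher (3.85%) of 26 tested members, and the median was -0.23. The transporter NRT2.4 (Os01g0547600), of the high-affinity nitrate transporter family, stood at 69.9, 78.4 and 55.5 CPM with chemical fertilizer and 25.1, 17.7 and 23.9 CPM with green manure. The treatments did not overlap, and the log2 fold change was -1.6 ± 0.16 (adjusted p = 0.00150). Nitrate reductase OsNR1 (Os08g0468100), which carries out the first step of nitrate assimilation, fell from 296, 322 and 235 CPM to 150, 148 and 178 CPM (log2 fold change -0.84 ± 0.13, adjusted p = 0.00527). All 3 green manure leaves were below all 3 chemical fertilizer leaves. NRT1.5A (Os02g0689900), the rice counterpart of an Arabidopsis transporter that loads nitrate into the xylem, went from 28.7, 27.4 and 19.8 CPM to 14.1, 12.6 and 16.9 CPM (log2 fold change -0.79 ± 0.16, adjusted p = 0.0217). The groups came close here, since chemical fertilizer replicate 3 was nearest to green manure replicate 3. The other nitrate reductases OsNR2 (Os02g0770800) and OsNIA2 (Os08g0468700) had log2 fold changes of -1.65 ± 0.44 and -0.89 ± 0.28 without passing the test (adjusted p = 0.0840 and adjusted p = 0.122).

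The member that rose was OsHHO3 (Os03g0764600), a GARP-family transcription factor of the NIGT1/HHO subfamily, whose Arabidopsis members repress nitrate transport genes. It stood at 80.4, 62.3 and 93.2 CPM with chemical fertilizer and 234, 236 and 184 CPM with green manure. The lowest green manure leaf held 184 CPM against 93.2 CPM in the highest chemical fertilizer leaf, and the log2 fold change was 1.47 ± 0.15 (adjusted p = 0.00166). NRT2.4, OsNR1 and OsHHO3 kept their call with any single library left out, and the call was lost in 3 of 6 for NRT1.5A (adjusted p up to 0.0942).

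Ammonium genes moved in both directions. Of 14 tested genes for ammonium transport, glutamine synthetase and glutamate synthase, 1 rose (7.14%) and 2 fell (14.3%), with a median of -0.26. Without green manure replicate 1 there were 2 higher and 3 lower. The ammonium transporter AMT1;1 (Os04g0509600) fell from 154, 164 and 146 CPM to 102, 111 and 107 CPM (log2 fold change -0.54 ± 0.09, adjusted p = 0.00797). Of the cytosolic glutamine synthetases, which fix ammonium outside the plastid, GLN1;1 (Os02g0735200) fell and GS1;2 (Os03g0223400) rose. GLN1;1 stood at 611, 601 and 576 CPM with chemical fertilizer and 488, 416 and 442 CPM with green manure (log2 fold change -0.41 ± 0.10, adjusted p = 0.0413). GS1;2 stood at 64.7, 51.4 and 64.8 CPM with chemical fertilizer and 111, 87.5 and 88.8 CPM with green manure (log2 fold change 0.67 ± 0.12, adjusted p = 0.0137). In both, the groups did not overlap, and they lay on opposite sides. Plastid glutamine synthetase GS2 (Os04g0659100), which refixes ammonium from photorespiration, was not called at 2526, 2970 and 2867 CPM and 2907, 3806 and 3497 CPM, where green manure replicate 1 lay inside the range of chemical fertilizer. Without green manure replicate 1, GS2 was called higher (adjusted p = 0.0280). NADH-GOGAT2 (Os05g0555600), a glutamate synthase, missed the threshold at 1.81 ± 0.46 (adjusted p = 0.0538) with at most 2.05 CPM in any library. AMT1;1 kept its call in every fit without 1 library, and the call was lost in 2 of 6 for GS1;2 and in 5 of 6 for GLN1;1 (adjusted p up to 0.170).

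Both asparaginase genes, the first enzymes of ureide breakdown and the urea transporter fell in green manure leaves. Of 12 tested members of this list 0 rose and 5 fell (41.7%) and the median was -0.17. ASNASE2 (Os04g0650700), by its name an asparaginase, which frees ammonium from asparagine, stood at 362, 434 and 242 CPM with chemical fertilizer and 85.6, 67.6 and 93.6 CPM with green manure. The lowest chemical fertilizer leaf held 242 CPM against 93.6 CPM in the highest green manure leaf (log2 fold change -2.07 ± 0.22, adjusted p = 0.00520). The related ASNASE1 (Os03g0597600) fell from 5.49, 4.64 and 3.19 CPM to 2.21, 1.85 and 1.496 CPM (log2 fold change -1.23 ± 0.26, adjusted p = 0.0255). Asparagine synthetase ASN (Os06g0265000), which makes asparagine, was not called, with a log2 fold change of -0.29 ± 0.09 (adjusted p = 0.0984).

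In ureide breakdown, allantoinase opens the allantoin ring and allantoate amidohydrolase then releases ammonium. ALN (Os04g0680400), the allantoinase, stood at 64.6, 87.5 and 57.5 CPM with chemical fertilizer and 16.1, 17.9 and 23.9 CPM with green manure. The groups did not overlap (log2 fold change -1.85 ± 0.19, adjusted p = 0.00321). AAH (Os06g0665500), named as the allantoate amidohydrolase, went from 219, 249 and 189 CPM to 146, 153 and 168 CPM (log2 fold change -0.49 ± 0.11, adjusted p = 0.0342). The next enzyme, ureidoglycolate amidohydrolase UAH (Os12g0597500), was not called and stood at 16.5, 16.9 and 15.03 CPM and 16.8, 17.7 and 15.5 CPM, with the groups overlapping. The urea transporter DUR3 (Os10g0580400) fell from 41.1, 44.6 and 35.8 CPM to 17.6, 11.6 and 22.8 CPM (log2 fold change -1.21 ± 0.21, adjusted p = 0.0234). ASNASE2 and ALN kept their call in each of the 6 fits with 1 library left out, and the call was lost in 3 of 6 for DUR3 and in 4 of 6 for ASNASE1 and AAH (adjusted p up to 0.154).

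In 2024, amino acid enzymes showed a contrast between proline breakdown and synthesis, and the synthesis genes named here were not called in 2023. Of 18 tested enzymes of the proline and aspartate families, 5 rose (27.8%) and 1 fell (5.56%), with a median of 0.18. The member that fell was PRODH (Os10g0550900), proline dehydrogenase, the first enzyme of proline breakdown. It stood at 110, 154 and 82.9 CPM with chemical fertilizer and 31.5, 23.8 and 32.3 CPM with green manure (log2 fold change -1.98 ± 0.24, adjusted p = 0.0110). Green manure leaves lay close together, and the spread was in the chemical fertilizer leaves. P5CS (Os05g0455500), the first enzyme of proline synthesis, rose from 37.4, 30.5 and 43.9 CPM to 84.5, 68.3 and 59.9 CPM (log2 fold change 0.93 ± 0.15, adjusted p = 0.0139). A further synthase of this step, ALDH18B2 (Os01g0848200), rose from 8.38, 8.44 and 9.25 CPM to 15.3, 15.4 and 10.3 CPM (log2 fold change 0.64 ± 0.16, adjusted p = 0.0493), with green manure replicate 3 just above the highest chemical fertilizer leaf.

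In the aspartate family, which leads to lysine, threonine, methionine and isoleucine, 3 enzymes rose. AK-HSDH2 (Os09g0294000), the bifunctional aspartokinase and homoserine dehydrogenase, stood at 145, 147 and 183 CPM with chemical fertilizer and 628, 802 and 474 CPM with green manure. The lowest green manure leaf held 474 CPM against 183 CPM in the highest chemical fertilizer leaf (log2 fold change 2.0 ± 0.19, adjusted p = 0.00161). Os03g0850400, described as similar to an aspartokinase, stood at 6.902, 4.58 and 11.8 CPM with chemical fertilizer and 79.2, 73.8 and 43.3 CPM with green manure (log2 fold change 3.04 ± 0.42, adjusted p = 0.0298). Its change was larger than that of AK-HSDH2, but the chemical fertilizer leaves varied more, and without green manure replicate 1 it did not pass (adjusted p = 0.0605). Os01g0693800, described as similar to threonine synthase, rose from 44.6, 32.4 and 45.5 CPM to 105, 115 and 79.99 CPM (log2 fold change 1.29 ± 0.16, adjusted p = 0.00481). Outside this list, Os01g0238500, described as similar to a branched-chain amino acid aminotransferase, stood at 219, 183 and 352 CPM with chemical fertilizer and 1002, 1309 and 833 CPM with green manure (log2 fold change 2.06 ± 0.29, adjusted p = 0.0177). PRODH, AK-HSDH2 and Os01g0693800 kept their call in all 6 fits that left out 1 library, and the call was lost in 2 of 6 for P5CS and Os01g0238500, in 4 of 6 for Os03g0850400 and in 5 of 6 for ALDH18B2 (adjusted p up to 0.173).

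**Figure D2:**
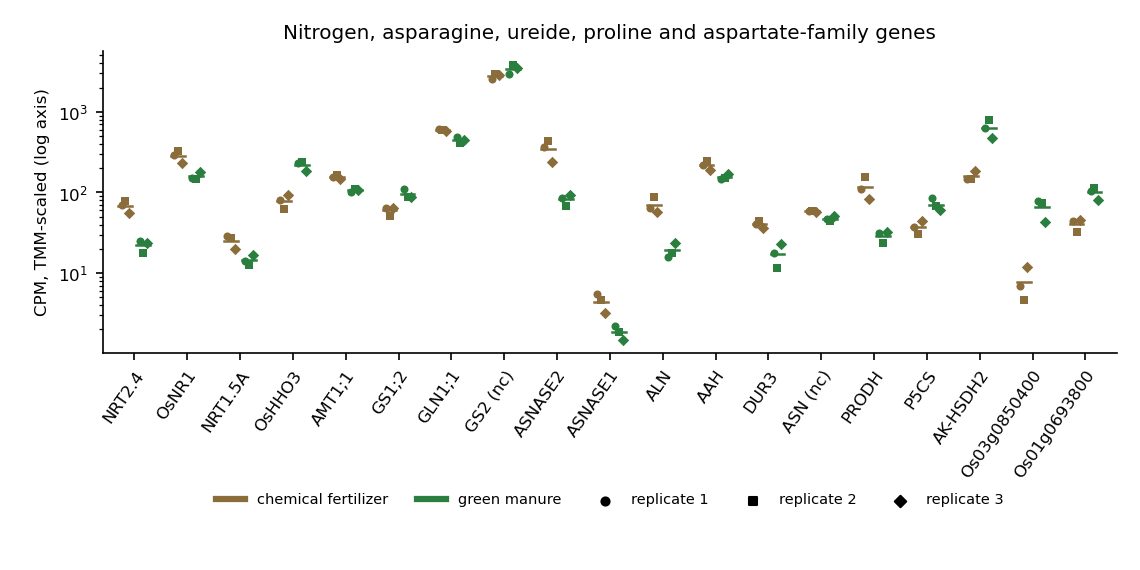
TMM-scaled CPM (log axis) of nitrogen and amino acid genes in each 2024 library, with brown for chemical fertilizer, green for green manure, marker shape for the replicate and bars for the means of 3. Genes marked nc were not called. ASNASE2, ALN, DUR3 and PRODH lie lower with green manure, and OsHHO3, AK-HSDH2 and Os03g0850400 lie higher.

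Amino acid and peptide transporters, 72 of them tested, followed with 1 higher (1.39%) and 6 lower (8.33%) and a median of -0.11. There were 4 higher and 12 lower without green manure replicate 1. AAP11E (Os01g0882800), described as an amino acid carrier, had the largest fall (log2 fold change -2.09 ± 0.37, adjusted p = 0.0116), at 1.73, 2.46 and 2.15 CPM and 0.755, 0.353 and 0.312 CPM. OsATL8 (Os11g0298000) fell from 57.4, 49.97 and 34.4 CPM to 18.9, 17.2 and 17.8 CPM (log2 fold change -1.39 ± 0.17, adjusted p = 0.00382). HT (Os08g0127100) fell from 24.3, 22.8 and 23.6 CPM to 12.7, 6.799 and 10.1 CPM (log2 fold change -1.23 ± 0.17, adjusted p = 0.00520). The other named falls were LHT7 (Os04g0562100), a lysine and histidine transporter (log2 fold change -0.63 ± 0.10, adjusted p = 0.00583), and OsBAT1 (Os01g0607200) (log2 fold change -1.19 ± 0.23, adjusted p = 0.0177). In all of these the groups did not overlap. OsATL8, HT and LHT7 kept their call with any single library left out, and the call was lost in 2 of 6 for AAP11E and in 4 of 6 for OsBAT1 (adjusted p up to 0.0832).

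Several superoxide dismutases, the enzymes that convert superoxide to hydrogen peroxide, fell with green manure. Of 8 tested members, counting their copper chaperone, 0 rose and 4 fell, with a median of -0.72. Of the 4, SODCC1 and SODCC2 are annotated as copper/zinc enzymes, CCSD is the chaperone, and the description of SOD4 names no metal. SODCC2 (Os07g0665200) stood at 42.7, 37.6 and 42.6 CPM with chemical fertilizer and 14.7, 16.8 and 14.5 CPM with green manure, a log2 fold change of -1.43 ± 0.10 (adjusted p = 1.77e-04). SODCC1 (Os03g0351500) stood at 247, 234 and 233 CPM with chemical fertilizer and 105, 135 and 110 CPM with green manure, a log2 fold change of -1.03 ± 0.11 (adjusted p = 8.91e-04). CCSD (Os04g0573200), the chaperone that loads copper into these enzymes, stood at 43.6, 43.2 and 43.9 CPM with chemical fertilizer and 18.9, 25.2 and 20.3 CPM with green manure, a log2 fold change of -1.03 ± 0.11 (adjusted p = 0.00125). The deposited annotation lists these 3 genes as targets of miR398b. SOD4 (Os08g0561700) stood at 179, 171 and 158 CPM with chemical fertilizer and 71.7, 91.9 and 83.5 CPM with green manure, a log2 fold change of -1.04 ± 0.11 (adjusted p = 8.91e-04).

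In these 4 genes the 3 leaves of each treatment lay close together and far from the other treatment. Green manure replicate 1, which lay between the groups on the first principal component, was not between them here. It had the lowest value of the 3 green manure leaves for SOD4, SODCC1 and CCSD. The list's median log2 ratio to the chemical fertilizer mean was -0.69, -0.70 and -0.74 in green manure replicates 1, 2 and 3. The 4 calls held in each of the 6 fits that left out 1 library. The remaining members were not called. SOD2 (Os03g0219200), a further copper/zinc enzyme, stood at 91.9, 97.04 and 99.9 CPM with chemical fertilizer and 92.6, 125 and 95.6 CPM with green manure, with the groups overlapping (log2 fold change 0.11 ± 0.11). The iron enzymes FSD1.1 (Os06g0115400) and SODB (Os06g0143000) also overlapped, at 21.01, 12.5 and 18.9 against 25.4, 18.6 and 17.5 CPM and 9.61, 7.602 and 9.09 against 9.16, 7.15 and 7.92 CPM. The manganese enzyme SODA1 (Os05g0323900) had a log2 fold change of -0.42 ± 0.12 and did not pass (adjusted p = 0.0722).

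Among 25 tested copper genes 3 rose (12%) and 0 fell, with a median of 0.14, and 5 were called higher without green manure replicate 1. MIR408 (Os01g0322700), the precursor transcript of miR408, stood at 0.185, 0.2795 and 0.558 CPM with chemical fertilizer and 4.58, 16.9 and 14.03 CPM with green manure. The lowest green manure leaf, replicate 1, was far below the other green manure leaves and still above every chemical fertilizer leaf (log2 fold change 4.96 ± 0.70, adjusted p = 0.0214). These are reads of the precursor, since polyA libraries do not measure the mature microRNA. COPT1 (Os01g0770700), a high-affinity copper transporter, stood at 19.04, 21.1 and 18.3 CPM with chemical fertilizer and 38.5, 53.95 and 46.3 CPM with green manure, and the groups did not overlap (log2 fold change 1.24 ± 0.12, adjusted p = 8.91e-04). COPT6 (Os08g0455900), a putative copper transporter, had at most 0.123 CPM with chemical fertilizer and 0.809, 1.32 and 0.686 CPM with green manure (log2 fold change 3.6 ± 0.69, adjusted p = 0.0169). Few reads lie behind COPT6, whose level was at most 1.32 CPM. Plastocyanin PC (Os06g0101600), the copper protein that carries electrons to photosystem I, was not called at 2792, 3039 and 3190 CPM and 2988, 4827 and 3813 CPM. The copper ATPase HMA8 (Os03g0178100) was not called either (log2 fold change 0.35 ± 0.10, adjusted p = 0.0892), although its groups did not overlap. Without green manure replicate 1, PC and HMA8 were both called higher (adjusted p = 0.00989 and adjusted p = 0.00582). The copper chaperone ATX1 (Os08g0205400), at 43.6, 44.8 and 45.9 and 42.4, 37.3 and 36.8 CPM, was not called. None of the tested uclacyanin (UCL) and laccase (LAC) genes of this list was called. Their log2 fold changes went both ways, from -0.50 ± 0.20 for UCL9 (Os03g0709300) to 0.75 ± 0.40 for LAC8 (Os01g0850700). COPT1 kept its call in every fit without 1 library, and the call was lost in 3 of 6 for MIR408 and in 4 of 6 for COPT6 (adjusted p up to 0.133).

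**Figure D3:**
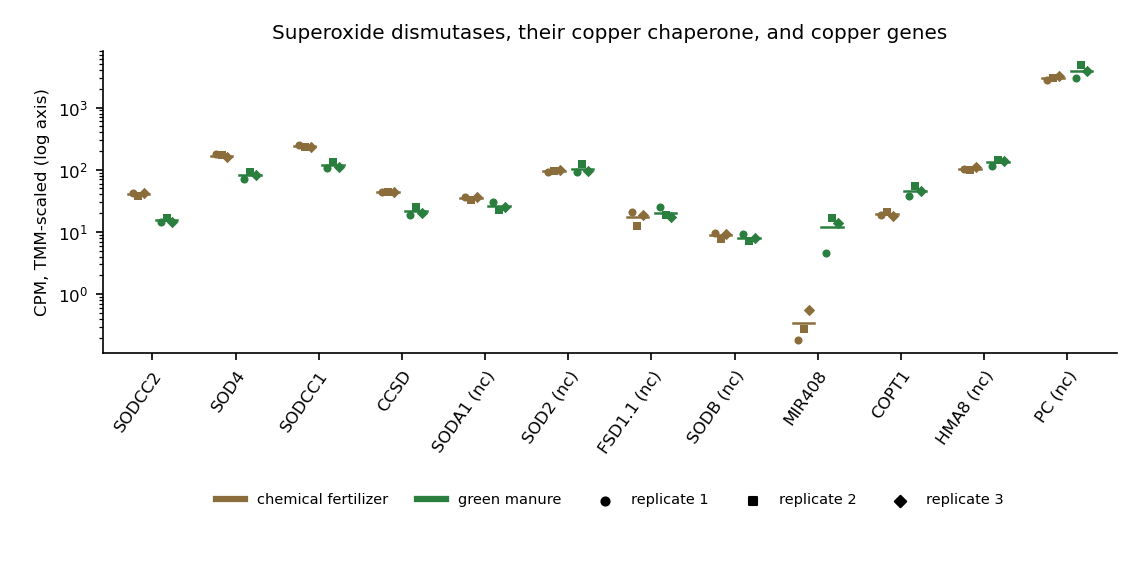
TMM-scaled CPM (log axis) of superoxide dismutases, their copper chaperone CCSD and copper genes in each 2024 library, with brown for chemical fertilizer, green for green manure, marker shape for the replicate and bars for the means of 3. Genes marked nc were not called. The first 4 genes are lower in all 3 green manure libraries, and MIR408 and COPT1 are higher in all 3.

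Many genes of chlorophyll synthesis and light capture rose with green manure, and 0 fell. In chlorophyll and heme synthesis 14 of 31 tested members rose (45.2%), 0 fell and the median was 0.46. Early and late steps of the pathway both gave calls, and others did not pass. At its start, HEMA1 (Os10g0502400), glutamyl-tRNA reductase, stood at 125, 110 and 121 CPM with chemical fertilizer and 176, 281 and 231 CPM with green manure (log2 fold change 0.95 ± 0.15, adjusted p = 0.0100). YS53 (Os08g0532200), the glutamate-1-semialdehyde aminomutase, stood at 96.1, 72.9 and 92.6 CPM with chemical fertilizer and 147, 172 and 149 CPM with green manure (log2 fold change 0.84 ± 0.12, adjusted p = 0.00331). The groups did not overlap in either, and YS53 showed less spread among the green manure leaves.

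Of the steps from aminolevulinate to protoporphyrin, ALAD (Os06g0704600), UroS (Os03g0186100), HEME (Os01g0622300) and PPO2 (Os04g0490100) were not called, with log2 fold changes of 0.45 ± 0.11, 0.26 ± 0.13, 0.1 ± 0.16 and -0.26 ± 0.27. LM3 (Os03g0337600), described as uroporphyrinogen decarboxylase, had a log2 fold change of 1.52 ± 0.27 (adjusted p = 0.0427). Magnesium chelatase puts magnesium into protoporphyrin, and its subunits CHLD (Os03g0811100), CHLI (Os03g0563300) and CHLH (Os03g0323200) had log2 fold changes of 0.77, 1.2 and 1.08. CHLH stood at 1711, 1987 and 2013 CPM with chemical fertilizer and 2930, 5402 and 3757 CPM with green manure (adjusted p = 0.0222). Green manure replicate 2 was the highest leaf for CHLH and replicate 1 the lowest of its group, still above all chemical fertilizer leaves. GUN4 (Os11g0267000), an activator of the chelatase, rose by 1.1 ± 0.22 (adjusted p = 0.0433). The cyclase subunit YL1 (Os01g0279100) rose by 0.74 ± 0.14 (adjusted p = 0.0139). DVR (Os03g0351200), the divinyl reductase, and YGL1 (Os05g0349700), the chlorophyll synthase, were not called (log2 fold change 0.16 ± 0.14, adjusted p = 0.644, and log2 fold change -0.28 ± 0.14, adjusted p = 0.326). The count of called genes in this list was 17 without green manure replicate 1, 11 without replicate 2 and 6 without replicate 3, and 2, 4 and 5 without chemical fertilizer replicates 1, 2 and 3.

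The light-dependent protochlorophyllide reductases make chlorophyllide, and both named genes rose. PORA (Os04g0678700) stood at 38.7, 35.2 and 52.9 CPM with chemical fertilizer and 135, 323 and 214 CPM with green manure (log2 fold change 2.4 ± 0.37, adjusted p = 0.0391). FGL (Os10g0496900), described as reductase B, stood at 412, 408 and 428 CPM with chemical fertilizer and 634, 1249 and 944 CPM with green manure (log2 fold change 1.18 ± 0.21, adjusted p = 0.0270). In both, replicate 1 was the lowest green manure leaf and replicate 2 the highest, with no overlap with chemical fertilizer. YGL10 (Os10g0567400), the chlorophyllide a oxygenase that makes chlorophyll b, rose by 0.6 ± 0.13 (adjusted p = 0.0333). LYL1 (Os02g0744900), the geranylgeranyl reductase that supplies the phytol tail, rose by 0.88 ± 0.14 (adjusted p = 0.00817). The transcription factor GLK1 (Os06g0348800), which switches on chloroplast genes, stood at 362, 361 and 408 CPM with chemical fertilizer and 483, 676 and 602 CPM with green manure (log2 fold change 0.64 ± 0.12, adjusted p = 0.0175), while its relative GLK2 (Os01g0239000) did not pass (log2 fold change 0.3 ± 0.09, adjusted p = 0.0974). Among 22 genes of chlorophyll breakdown and senescence 1 rose (4.55%, against 3.25% of all genes called) and 0 fell, with a median of -0.05. Without green manure replicate 1 there were 2 higher and 2 lower. The gene called with all 6 libraries was NYC4 (Os07g0558500) (log2 fold change 0.95 ± 0.18, adjusted p = 0.0259). NYC1 (Os01g0227100), the chlorophyll b reductase of leaf yellowing, was not called at 193, 206 and 209 and 185, 190 and 195 CPM. HEMA1 and YS53 kept their call in each of the 6 fits with 1 library left out, and the call was lost in 1 of 6 for LYL1 and CHLD, in 2 of 6 for CHLI, in 3 of 6 for YL1 and NYC4, in 4 of 6 for CHLH, GUN4, PORA, FGL and LM3 and in 5 of 6 for YGL10 and GLK1 (adjusted p up to 0.160).

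Light-harvesting proteins bind chlorophyll around the photosystems, and 6 of 16 tested rose (37.5%), 0 fell and the median was 0.79. CAB2R (Os01g0600900) stood at 4332, 5914 and 5099 CPM with chemical fertilizer and 9875, 18453 and 13534 CPM with green manure. The lowest green manure leaf held 9875 CPM, above the highest chemical fertilizer leaf at 5914 CPM. LHCB2.1 (Os03g0592500), a photosystem II antenna gene, stood at 5987, 7070 and 6725 CPM with chemical fertilizer and 9773, 14907 and 12056 CPM with green manure (adjusted p = 0.00968). Of the 33 photosystem and electron transport genes 7 rose (21.2%) and 0 fell, with a median of 0.61. Among them were the 3 proteins of the oxygen-evolving complex, PSBO (Os01g0501800) at 0.92 ± 0.14, PSBP (Os07g0141400) at 0.84 ± 0.16 and PSBQ (Os07g0544800) at 1.26 ± 0.22. Of 41 Calvin cycle and photorespiration genes 5 rose (12.2%) and 0 fell. They included the Rubisco small subunits RBCS3 (Os12g0291100) (log2 fold change 1.12 ± 0.24, adjusted p = 0.0428) and RBCS4 (Os12g0292400) (log2 fold change 0.87 ± 0.18, adjusted p = 0.0258). They also included ribose-5-phosphate isomerase OsRPI (Os04g0306400), which stood at 47.02, 38.5 and 48.9 CPM with chemical fertilizer and 77.7, 80.6 and 71.2 CPM with green manure (log2 fold change 0.77 ± 0.10, adjusted p = 0.00322). Small subunit and CAB genes have near-identical copies, and counting reads that map to 1 place could leave out reads shared between copies. CAB2R and OsRPI kept their call in all 6 fits that left out 1 library, and the call was lost in 1 of 6 for PSBO, in 2 of 6 for LHCB2.1, in 4 of 6 for PSBP and PSBQ and in 5 of 6 for RBCS3 and RBCS4 (adjusted p up to 0.136).

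Of the 3 green manure libraries, replicate 1 lay nearest to chemical fertilizer for the light-harvesting and photosystem genes. Over the light-harvesting list the median log2 ratio to the chemical fertilizer mean was 0.36, 1.12 and 0.78 in green manure replicates 1, 2 and 3. For the photosystem list the 3 medians were 0.20, 0.90 and 0.56. Without replicate 1, 13 light-harvesting, 21 photosystem, 17 chlorophyll synthesis and 11 Calvin cycle genes were called higher and 0 lower. The summed mesophyll markers, which include genes of these lists, moved the same way, and their part in these results was not tested. Of 17 tested genes of the xanthophyll cycle, PsbS and carotenoids 2 rose (11.8%) and 0 fell, with a median of 0.07. Without green manure replicate 1 there were 3 higher and 2 lower. Of 32 plastid FtsH, Clp and Deg proteases 2 rose (6.25%) and 0 fell, with a median of 0.05. Without that replicate 4 were higher and 0 lower. LYCE (Os01g0581300), the lycopene epsilon-cyclase that leads to lutein, stood at 16.3, 17.2 and 20.6 CPM with chemical fertilizer and 47.01, 71.3 and 44.95 CPM with green manure (log2 fold change 1.58 ± 0.18, adjusted p = 0.00360). PSY1 (Os06g0729000), the first enzyme of carotenoid synthesis, rose by 0.72 ± 0.15 (adjusted p = 0.0306). The protease genes FTSH6 (Os06g0229000) and Os06g0229066, neighbours with like descriptions whose reads may not be separable, rose by 1.65 ± 0.25 and 1.51 ± 0.21. The factor PIL13 (Os03g0782500), a phytochrome-interacting factor-like protein of light signalling, stood at 56.8, 61.9 and 72.1 CPM with chemical fertilizer and 144, 205 and 147 CPM with green manure (log2 fold change 1.38 ± 0.15, adjusted p = 0.00171). LYCE, PIL13 and Os06g0229066 kept their call with any single library left out, and the call was lost in 1 of 6 for FTSH6 and in 5 of 6 for PSY1 (adjusted p up to 0.130).

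**Figure D4:**
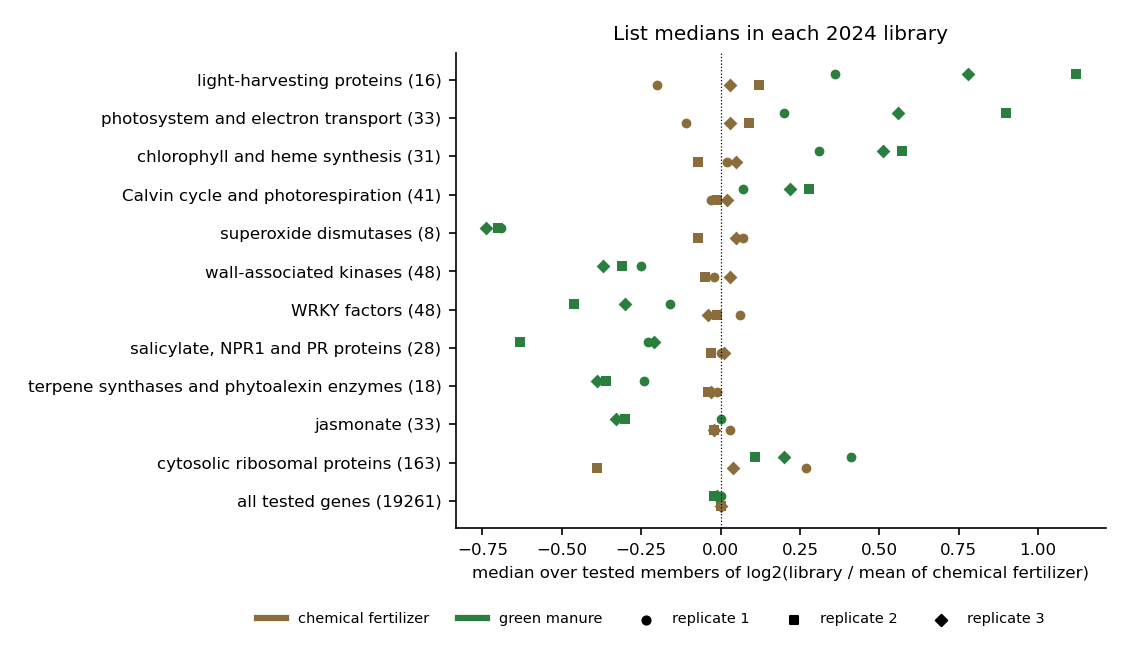
Median over the tested members of a list (number in brackets) of the log2 ratio of each 2024 library to the mean of chemical fertilizer, with brown for chemical fertilizer, green for green manure and marker shape for the replicate. Green manure replicate 1 (0.36) lies between chemical fertilizer and the other green manure libraries (1.12 and 0.78) for light-harvesting proteins, and beside them for superoxide dismutases (-0.69, -0.70 and -0.74).

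Some transcription factors and receptors of defence fell in green manure leaves, and most members of these lists did not pass. Of 48 tested WRKY transcription factors 0 rose and 6 fell (12.5%), with a median of -0.28. Without green manure replicate 1, 14 were called lower and the median was -0.46, and 5 were called lower without any other single library. WRKY45 (Os05g0322900), a main activator of salicylate-dependent resistance in rice, stood at 51.6, 41.2 and 52.2 CPM with chemical fertilizer and 15.8, 24.5 and 20.1 CPM with green manure (log2 fold change -1.28 ± 0.15, adjusted p = 0.00297). WRKY76 (Os09g0417600), known as a repressor of blast resistance, stood at 30.3, 29.9 and 19.3 CPM with chemical fertilizer and 7.71, 11.2 and 9.29 CPM with green manure (log2 fold change -1.5 ± 0.20, adjusted p = 0.00520). WRKY62 (Os09g0417800), its neighbour in the same clade, stood at 4.25, 2.74 and 4.03 CPM with chemical fertilizer and 0.863, 1.24 and 1.19 CPM with green manure (log2 fold change -1.77 ± 0.27, adjusted p = 0.00583). The calls thus include factors known to act in opposite directions on resistance. The falls of WRKY69 (Os08g0386200) and WRKY7 (Os05g0537100) measured -1.76 ± 0.24 and -1.32 ± 0.20. None of these 5 genes showed an overlap between treatments.

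Of 28 tested salicylate, NPR1 and pathogenesis-related genes 0 rose and 3 fell (10.7%), with a median of -0.41, and WRKY45 is 1 of the 3. Without green manure replicate 1 there were 1 higher and 5 lower. NH1 (Os01g0194300), the rice counterpart of the salicylate co-activator NPR1, stood at 6.47, 6.48 and 6.38 CPM with chemical fertilizer and 4.26, 2.296 and 3.55 CPM with green manure (log2 fold change -0.9 ± 0.20, adjusted p = 0.0337). S3H (Os04g0581100), which hydroxylates and so inactivates salicylate, stood at 4.81, 4.86 and 8.97 CPM with chemical fertilizer and 1.19, 2.65 and 1.75 CPM with green manure (log2 fold change -1.81 ± 0.34, adjusted p = 0.0207). Chemical fertilizer replicate 3 was the highest leaf for S3H. Of 33 jasmonate genes 1 fell, TIFY10B (Os07g0615200), a JAZ-type repressor (log2 fold change -0.49 ± 0.12, adjusted p = 0.0493), and 0 rose. This share of 3.03% is close to the 3.25% of all genes called in either direction, of which 1.36% fell. The list median was -0.23. In the fit without green manure replicate 1, 6 jasmonate genes were called lower. The jasmonate median was 0.00 in green manure replicate 1 against -0.30 and -0.33 in the other 2. WRKY45, WRKY76, WRKY62, WRKY69 and WRKY7 kept their call in every fit without 1 library, and the call was lost in 2 of 6 for S3H and in 5 of 6 for NH1 and TIFY10B (adjusted p up to 0.197).

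Wall-associated kinases, which span the membrane and in Arabidopsis bind pectin of the cell wall, gave further falls. Of 48 tested, 0 rose and 9 fell (18.8%), with a median of -0.31. The count was 11 without green manure replicate 1, 4 and 6 without replicates 2 and 3, and 4, 8 and 3 without chemical fertilizer replicates 1, 2 and 3. WAK82 (Os09g0471500) stood at 9.06, 5.37 and 10.01 CPM with chemical fertilizer and 1.78, 1.59 and 2.24 CPM with green manure (log2 fold change -2.11 ± 0.26, adjusted p = 0.00226). WAK45 (Os04g0368800) stood at 6.72, 6.99 and 8.37 CPM with chemical fertilizer and 1.73, 2.21 and 2.93 CPM with green manure (log2 fold change -1.7 ± 0.21, adjusted p = 0.00226). WAK32 (Os04g0307500) stood at 11.96, 10.3 and 10.8 CPM with chemical fertilizer and 4.798, 4.68 and 6.67 CPM with green manure (log2 fold change -1.02 ± 0.16, adjusted p = 0.00677). In each, all 3 green manure leaves were below all chemical fertilizer leaves. WAK60 (Os04g0370900) had the largest fall of the list (log2 fold change -2.23 ± 0.40, adjusted p = 0.0130) at levels under 4 CPM. Several of these kinases sit in clusters of similar genes, so reads shared between copies could be lost or split. WAK82, WAK45 and WAK32 kept their call in each of the 6 fits with 1 library left out, and the call was lost in 3 of 6 for WAK60 (adjusted p up to 0.0657).

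Receptors with an NB-ARC domain, which detect pathogen proteins inside the cell, gave 1 rise and 5 falls among 162 tested (3.70% called, close to the 3.25% of all genes). By direction 0.617% rose and 3.09% fell, against 1.89% and 1.36% of all genes. The median was -0.14, with 49 members above 0 and 113 below. The fit without green manure replicate 1 gave 2 rises and 11 falls. The falls Os11g0227800 (log2 fold change -1.71 ± 0.20, adjusted p = 0.00166), Os11g0227100 (log2 fold change -1.29 ± 0.19, adjusted p = 0.00472) and Os11g0226933 (log2 fold change -1.1 ± 0.19, adjusted p = 0.0113) have neighbouring locus numbers. Os11g0227800 stood at 6.72, 7.32 and 7.38 CPM with chemical fertilizer and 1.73, 2.03 and 2.81 CPM with green manure. The receptor-like kinases SOBIR1 (Os06g0288100), a partner of receptor-like proteins in immunity, and MRLK59 (Os09g0355400), a malectin kinase named for sheath blight resistance, also fell. SOBIR1 stood at 32.7, 27.2 and 29.4 CPM with chemical fertilizer and 17.1, 13.8 and 13.5 CPM with green manure (log2 fold change -1.0 ± 0.12, adjusted p = 0.00187). MRLK59 stood at 140, 130 and 149 CPM with chemical fertilizer and 81.8, 79.1 and 87.1 CPM with green manure (log2 fold change -0.76 ± 0.09, adjusted p = 0.00171). Os11g0227800, Os11g0227100, SOBIR1 and MRLK59 kept their call in all 6 fits that left out 1 library, and the call was lost in 3 of 6 for Os11g0226933 (adjusted p up to 0.0628).

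Terpene synthases and phytoalexin enzymes, which make volatile and antimicrobial compounds, gave 0 rises and 3 falls among 18 tested (16.7%), with a median of -0.42. There were 6 falls without green manure replicate 1. TPS29 (Os08g0139700), described as similar to terpene synthase 6, stood at 4341, 4507 and 5144 CPM with chemical fertilizer and 2651, 2723 and 3216 CPM with green manure (log2 fold change -0.7 ± 0.12, adjusted p = 0.00946). The monoterpene synthase TPS24 (Os04g0345400) stood at 51.7, 52.2 and 53.3 CPM with chemical fertilizer and 24.3, 22.6 and 32.4 CPM with green manure (log2 fold change -0.98 ± 0.12, adjusted p = 0.00241). The groups did not overlap in either gene. TPS24 kept its call with any single library left out, and the call was lost in 1 of 6 for TPS29 (adjusted p up to 0.0608). Of 31 class III peroxidases 0 were called by edgeR or DESeq2, against 3.25% of all genes in edgeR, with 4 at an unadjusted p under 0.05. Of 30 chitinases and thaumatins 1 rose and 1 fell (6.67% called, against 3.25% of all genes). Without green manure replicate 1, 2 peroxidases were called higher, and 3 chitinases and thaumatins higher and 1 lower.

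**Figure D5:**
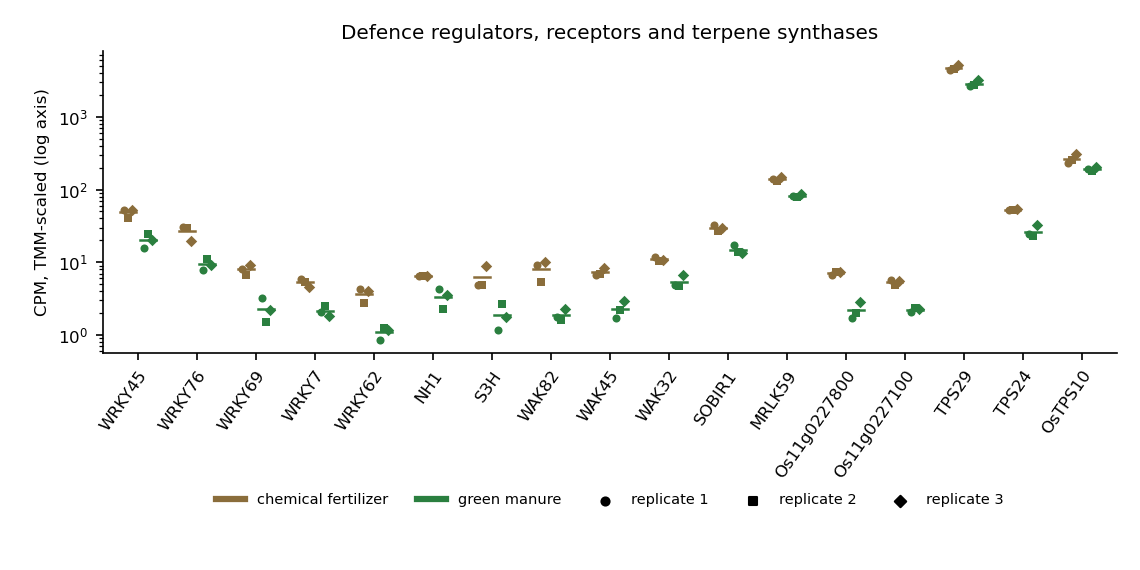
TMM-scaled CPM (log axis) of defence regulators, receptors and terpene synthases in each 2024 library, with brown for chemical fertilizer, green for green manure, marker shape for the replicate and bars for the means of 3. All 17 genes were called, and for each the green manure libraries lie below the chemical fertilizer libraries.

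Mineral nutrient genes moved in both directions. Of 45 tested phosphate starvation genes 2 rose and 4 fell (13.3% called), with a median of 0.01. The fit without green manure replicate 1 gave 6 higher and 5 lower. The phosphate transporters PT4 (Os04g0186400) and PT1 (Os03g0150600) fell. PT4 stood at 40.4, 39.6 and 37 CPM with chemical fertilizer and 21.4, 20.2 and 25 CPM with green manure (log2 fold change -0.81 ± 0.10, adjusted p = 0.00241). PT1 stood at 13.5, 12.7 and 13.2 CPM with chemical fertilizer and 6.68, 4.33 and 6.23 CPM with green manure (log2 fold change -1.17 ± 0.16, adjusted p = 0.00297). PHO1;2 (Os02g0809800), which exports phosphate, fell from 31.1, 30.5 and 28.2 CPM to 20.4, 21.2 and 21.3 CPM (log2 fold change -0.51 ± 0.09, adjusted p = 0.0137). In all 3 the groups did not overlap. SQD2.1 (Os07g0100300), a sulfolipid synthase gene of the response to low phosphate, rose from 105, 123 and 124 CPM to 173, 271 and 201 CPM (log2 fold change 0.87 ± 0.15, adjusted p = 0.0151). PHF1 (Os07g0187700), which helps phosphate transporters leave the endoplasmic reticulum, rose from 12.3, 11.96 and 13.8 CPM to 21.1, 20.1 and 18.5 CPM (log2 fold change 0.65 ± 0.11, adjusted p = 0.0111). PT4 and PT1 kept their call in every fit without 1 library, and the call was lost in 2 of 6 for PHO1;2, SQD2.1 and PHF1 (adjusted p up to 0.0761).

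Of 46 iron, zinc and nicotianamine genes 4 rose and 0 fell (8.70%). The iron storage proteins FER1 (Os11g0106700) and FER2 (Os12g0106000) rose by 0.89 ± 0.17 (adjusted p = 0.0216) and 0.83 ± 0.18 (adjusted p = 0.0376). FER1 stood at 685, 452 and 659 CPM with chemical fertilizer and 916, 1177 and 1224 CPM with green manure, with chemical fertilizer replicate 2 the lowest leaf. The ferritin genes are near-identical copies, and their reads may not be fully separable. YSL16 (Os04g0542800), a transporter known in rice to carry copper bound to nicotianamine, stood at 103, 119 and 108 CPM with chemical fertilizer and 147, 184 and 188 CPM with green manure (log2 fold change 0.65 ± 0.11, adjusted p = 0.00918). Of 32 sulfur genes 4 rose and 1 fell (15.6% called), and 7 and 1 without green manure replicate 1. SULTR2;1 (Os03g0195450), a sulfate transporter, stood at 11.03, 10.9 and 11.2 CPM with chemical fertilizer and 20, 18.1 and 15.2 CPM with green manure (log2 fold change 0.68 ± 0.13, adjusted p = 0.0142). The serine acetyltransferases SAT2;2 (Os03g0196600) and SAT3 (Os03g0133900), which make the carbon skeleton of cysteine, rose by 1.13 ± 0.19 and 0.62 ± 0.11. Of the ATP sulfurylases, OsATPS (Os04g0111200) rose by 0.37 ± 0.09 and ATPS (Os03g0743900) fell (log2 fold change -0.4 ± 0.09, adjusted p = 0.0268). With 1 library left out the call was lost in 1 of 6 for YSL16, in 2 of 6 for SAT2;2, in 3 of 6 for FER1, SULTR2;1 and SAT3 and in 5 of 6 for FER2, OsATPS and ATPS (adjusted p up to 0.199). Of 44 potassium and silicon transport genes 0 were called, against 3.25% of all genes. When 1 library was left out 0 to 5 were called, the most (2 higher and 3 lower) without green manure replicate 1. At an unadjusted p under 0.05 there were 10, and DESeq2 called 2.

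Of 31 tested CIPK and CBL genes, kinases and the calcium sensors they act with, 5 rose and 2 fell (22.6% called). CIPK15 (Os11g0113700), known in rice for its part in tolerance of low oxygen, stood at 0.308, 0.447 and 0.478 CPM with chemical fertilizer and 5.499, 5.83 and 3.12 CPM with green manure (log2 fold change 3.49 ± 0.33, adjusted p = 8.91e-04). The chemical fertilizer level was under 0.5 CPM in each leaf. CIPK14 (Os12g0113500), a near copy on another chromosome, stood at 4.93, 3.02 and 4.03 CPM with chemical fertilizer and 21.02, 14.9 and 9.54 CPM with green manure (log2 fold change 1.93 ± 0.30, adjusted p = 0.0159), and reads may not be fully separable between these 2 genes. CIPK29 (Os07g0678300) stood at 72.7, 64.7 and 74.5 CPM with chemical fertilizer and 110, 127 and 118 CPM with green manure (log2 fold change 0.74 ± 0.09, adjusted p = 0.00241). CIPK11 (Os01g0824600) fell (log2 fold change -0.63 ± 0.11, adjusted p = 0.0120). Of 9 plasma membrane proton pumps, which energise nutrient uptake, 2 rose (22.2%) and 0 fell, with a median of 0.13. AHA6 (Os02g0797300) stood at 0.616, 1.12 and 0.997 CPM with chemical fertilizer and 5.88, 5.39 and 6.23 CPM with green manure (log2 fold change 2.65 ± 0.24, adjusted p = 8.91e-04), with no overlap between groups at a low level. AHA3 (Os12g0638700) stood at 137, 136 and 161 CPM with chemical fertilizer and 194, 212 and 203 CPM with green manure (log2 fold change 0.49 ± 0.10, adjusted p = 0.0186). The tonoplast aquaporin TIP2;2 (Os06g0336200) stood at 51.1, 44.8 and 59.2 CPM with chemical fertilizer and 106, 107 and 92.3 CPM with green manure (log2 fold change 0.97 ± 0.11, adjusted p = 0.00150). It was the 1 call among 21 aquaporins (4.76%, against 3.25% of all genes). Without green manure replicate 1, 2 aquaporins were called higher and 2 lower. CIPK15, CIPK29, AHA6 and TIP2;2 kept their call in all 6 fits that left out 1 library, and the call was lost in 1 of 6 for CIPK11 and in 4 of 6 for CIPK14 and AHA3 (adjusted p up to 0.112).

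Of 24 tested cytokinin genes 4 rose and 0 fell (16.7%), while the list median was -0.02. The 4 genes cover synthesis, perception, response and breakdown. IPT7 (Os05g0551700), which makes cytokinin, was under 3 CPM in every library (log2 fold change 1.4 ± 0.30, adjusted p = 0.0281). The receptor HK4 (Os03g0717700) stood at 72.2, 74.96 and 77.1 CPM with chemical fertilizer and 96.5, 108 and 108 CPM with green manure (log2 fold change 0.48 ± 0.09, adjusted p = 0.0133). The type-A response regulator RR2 (Os02g0557800) stood at 85.3, 97.7 and 94.4 CPM with chemical fertilizer and 134, 151 and 120 CPM with green manure (log2 fold change 0.54 ± 0.10, adjusted p = 0.0160). CKX3 (Os10g0483500), which degrades cytokinin, stood at 9.43, 12.1 and 12 CPM with chemical fertilizer and 15.3, 25.5 and 19.1 CPM with green manure (log2 fold change 0.82 ± 0.18, adjusted p = 0.0358). All 3 had green manure replicate 2 as the highest leaf or level with it. With 1 library left out the call was lost in 3 of 6 for HK4 and RR2 and in 5 of 6 for CKX3 and IPT7 (adjusted p up to 0.134).

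Strigolactones are hormones that limit tillering and rise when phosphate or nitrogen is low. Of 12 tested genes 0 rose and 2 fell (16.7%), MAX1D (Os02g0221900) and D14L2 (Os05g0590300). The list as a whole did not fall, with a median of 0.02, 6 members above 0 and 6 below. Without green manure replicate 3 there were 1 higher and 3 lower. MAX1D, a cytochrome P450 related to a strigolactone enzyme of Arabidopsis, stood at 12.5, 14.98 and 7.93 CPM with chemical fertilizer and 3.18, 2.91 and 3.18 CPM with green manure (log2 fold change -1.91 ± 0.23, adjusted p = 0.00241). D14L2, of the receptor family, fell from 17.3, 15.7 and 15.4 CPM to 9.54, 10.9 and 12.6 CPM (log2 fold change -0.55 ± 0.13, adjusted p = 0.0428). Of 18 gibberellin genes 1 was called (5.56%, against 3.25% of all genes), and 1 higher and 2 lower without green manure replicate 1. The call with all 6 libraries was CYP714B2 (Os03g0332100), a gibberellin 13-oxidase (log2 fold change 0.59 ± 0.13, adjusted p = 0.0284). The beta-tubulin TUB6 (Os05g0413200) stood at 4.13, 5.48 and 5.18 CPM with chemical fertilizer and 22.5, 44.2 and 22.9 CPM with green manure (log2 fold change 2.58 ± 0.30, adjusted p = 0.00797). It was the 1 rise among 22 tubulins and actins (4.55%), and 1 further gene fell (4.55%). The clock list gave 0 calls of 16 tested in edgeR and DESeq2, against 3.25% of all genes in edgeR. A list this short can give 0 calls at that share, so this does not show an unchanged clock. Its median was 0.12, with 11 members above 0 and 5 below. There were 2 at an unadjusted p under 0.05, and 2 were called higher without green manure replicate 1. The leaves of both treatments were cut within the same hour of the day. MAX1D kept its call in every fit without 1 library, and the call was lost in 2 of 6 for TUB6 and in 5 of 6 for D14L2 and CYP714B2 (adjusted p up to 0.160).

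Sugar transporters gave 1 rise and 4 falls among 49 tested (10.2% called), with a median of -0.12. The calls were 2 higher and 9 lower without green manure replicate 1. SWEET2B (Os01g0700100), of the SWEET family of sugar exporters, stood at 144, 193 and 147 CPM with chemical fertilizer and 88.2, 92.5 and 104 CPM with green manure (log2 fold change -0.76 ± 0.12, adjusted p = 0.00785). STP26 (Os09g0416200) fell from 22.7, 19.3 and 21.5 CPM to 14.3, 11.1 and 13.5 CPM (log2 fold change -0.7 ± 0.12, adjusted p = 0.0113). PGLCT3 (Os09g0394500), of the plastid glucose transporter family, rose from 80.2, 88.5 and 92.3 CPM to 118, 144 and 124 CPM (log2 fold change 0.56 ± 0.10, adjusted p = 0.0121). Of 74 sucrose, starch and trehalose enzymes 3 rose and 3 fell (4.05% each), with a median of 0.00. The calls were 9 and 6 without green manure replicate 1. Starch synthase SSIVA (Os01g0720600) stood at 10.97, 10.01 and 11.6 CPM with chemical fertilizer and 25.4, 23.8 and 17.5 CPM with green manure (log2 fold change 1.03 ± 0.15, adjusted p = 0.00378). AGPS1 (Os09g0298200), a subunit of the enzyme that makes the starch precursor ADP-glucose, stood at 46.1, 47.7 and 55.5 CPM with chemical fertilizer and 32.2, 32.1 and 39.4 CPM with green manure (log2 fold change -0.53 ± 0.11, adjusted p = 0.0257). The neutral invertases NIN7 (Os04g0432400) and NIN4 (Os04g0409900), which split sucrose, had log2 fold changes of -0.6 and -0.38 and were both called. SWEET2B and SSIVA kept their call in each of the 6 fits with 1 library left out, and the call was lost in 2 of 6 for STP26 and PGLCT3, in 4 of 6 for AGPS1 and in 5 of 6 for NIN7 and NIN4 (adjusted p up to 0.158).

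The 2023 leaves gave a separate set of plants for the same contrast, at 47 days after transplanting and with 30 kg of vetch seed per hectare. Year, leaf age and seed rate change together and cannot be told apart. The difference between the years was tested as an interaction over all 14 libraries, and 2 of 19805 genes were called (0.0101%), with 1252 at an unadjusted p under 0.05. The members described above are therefore given side by side, and a difference in size between years is claimed only for those 2, the sugar transporter SWEET2B and PPR6 (Os05g0574800), a hypothetical conserved gene. Both lost that call with plain library totals (adjusted p = 0.0767 for each), and SWEET2B lost it in 7 and PPR6 in 6 of the 14 fits that left out 1 library. The 2023 values and calls come from a fit of all 14 libraries, and the 2024 ones from the fit of the 6 libraries of that year. Calls of the 2 years are therefore not from like tests. In the fit of 14, 241 genes were called higher and 188 lower in 2024. The log2 fold change of MIR408 was 2.62 ± 0.50 in 2023 and 4.96 in 2024. That of COPT1 was 1.31 ± 0.15 and 1.24, and that of SOD4 was -1.08 ± 0.16 and -1.04. SODCC2 missed the threshold in 2023 (-1.01 ± 0.26, adjusted p = 0.0544). The 2023 value was -1.07 ± 0.18 for ASNASE2, -0.77 ± 0.16 for ALN and -0.84 ± 0.17 for PRODH. All 3 were called in 2023, and their differences between years, -0.99 ± 0.27, -1.08 ± 0.26 and -1.13 ± 0.26, did not pass. Of the proline synthesis genes, P5CS was at 0.33 ± 0.14 in 2023 (adjusted p = 0.221). ALDH18B2 was at -0.45 ± 0.15 (adjusted p = 0.109), opposite in sign to 2024. Neither was called in 2023, and their differences, 0.61 ± 0.21 and 1.11 ± 0.23, did not pass. NRT2.4 was at -0.45 ± 0.13 in 2023 (adjusted p = 0.0564), with a difference of -1.15 ± 0.20 that also did not pass. List medians in 2023 and 2024 were 0.73 and 0.79 for light-harvesting proteins, -0.36 and -0.72 for superoxide dismutases, and -0.34 and -0.31 for wall-associated kinases. For WRKY factors they were -0.05 and -0.28, and for salicylate genes -0.10 and -0.41. The jasmonate list had 0.04 and -0.23.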

How the data were processed

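PolyA RNA of single leaves was sequenced in 6 libraries of 2024, per the labels. The authors deposited raw counts of unique exon reads per locus for 37727 loci of genome build IRGSP 1.0, per the labels and the submitters' processing notes. The aligner, the counter and the strand setting of counting are not given in the sources, so reads of overlapping antisense genes may be mixed. The table holds 2 further sample columns that no label used here describes, and they were not used. Gene names are those of the table, with symbols of known loci added where it has none. No sequence table of these loci was used here.

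After a low-count filter (filterByExpr, at least 10 reads by its count rule and 15 in total) and TMM scaling, groups were compared by the robust quasi-likelihood F-test of edgeR 4.0.16 in R 4.3.3 (package data.table, version 1.17.8), with Benjamini-Hochberg adjustment over all tested genes and a threshold of 0.05. The standard error of a log2 fold change is its absolute value over the root of F. The interaction with year was tested in 1 fit of 14 libraries. Ratios of single libraries to the chemical fertilizer mean add 0.5 CPM. Alternatives were DESeq2 1.42.0, its size factors, plain totals, no filter, a filter at 5 CPM in 3 libraries, a log2 change of 1 or more in either direction, limma 3.58.1 voom, all 14 libraries, the replicate number as a block and each library left out. The fit was tested on simulated data.

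Named genes are, among called genes with an informative name and a mean of at least 2 CPM, the 12 smallest p, the 12 largest fold changes and the 8 largest CPM differences in each direction, the 8 smallest interaction p, up to 5 called members of each list, and any member of the copper, superoxide dismutase, nitrogen, ureide and chlorophyll lists. The comparison, the lists and this rule were chosen with earlier results of these data known, so the lists are not independent evidence. Lists were built by searching names and descriptions, and some loci whose description named another protein were dropped after values had been seen.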

Additional observations from a re-analysis of the deposited data

Results flagged for a closer look

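The effect of green manure differed between the years for 2 genes in the test of the difference itself, the interaction of treatment and year in edgeR over 14 libraries. PPR6 (Os05g0574800), listed as a hypothetical conserved gene, had a log2 fold change of -1.07 ± 0.13 in 2023 and 0.35 ± 0.19 in 2024, where it was not called (adjusted p = 0.388). The difference was 1.43 ± 0.21 (adjusted p = 0.0208). SWEET2B (Os01g0700100) had 0.27 ± 0.11 in 2023, not called (adjusted p = 0.170), and -0.76 ± 0.12 in 2024. The difference was -1.03 ± 0.16 (adjusted p = 0.0254). Neither gene kept this call with plain library totals (adjusted p = 0.0767 for each), SWEET2B did not with the replicate number as a block (adjusted p = 0.0586), and without 1 library the call was lost in 6 of 14 fits for PPR6 and in 7 of 14 for SWEET2B. Both lost it without chemical fertilizer replicate 1, 2 or 3 or green manure replicate 4 of 2023, and without chemical fertilizer replicate 2 or green manure replicate 3 of 2024, and SWEET2B also without green manure replicate 2 of 2024. Groups of 3 leaves were too small to be searched for single outlying samples.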

How the results depend on the processing

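The count of genes called in 2024 (626, with 364 higher and 262 lower) moved with several choices. It was 1188 with plain library totals (203 higher, 985 lower), 975 with no filter (448 lower), and 195 with a required log2 change of 1 or more in either direction (98 higher, 97 lower). DESeq2 called 572 higher, and all 14 libraries in 1 fit gave 241 higher. When single libraries were left out the count lay between 162 (chemical fertilizer replicate 1) and 1603 (green manure replicate 1), with 79 to 960 higher and 83 to 643 lower. The other 4 fits gave 217, 290, 270 and 352. These fits hold 5 libraries, and without chemical fertilizer replicate 1 or 2 higher calls no longer outnumbered lower ones. DESeq2's size factors, the stricter filter and limma voom gave totals of 617, 540 and 575.

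With the replicate number as a block 1616 genes were called (939 higher, 677 lower). Deviations from the group means correlated at 0.263, 0.196 and -0.001 between libraries of the same number. The values for numbers 1 and 2 were the highest of all pairs, and libraries of unlike number lay between -0.285 and 0.129. Chemical fertilizer library 3 correlated best with green manure library 1, at only 0.038. Since number 3 showed no correlation, the numbers were not taken to pair the leaves, but these values do not exclude a pairing. For the interaction with year (2 called), DESeq2 gave 17, plain totals 0, no filter 4 and the block 1, and single libraries left out gave 0 to 13. Of the 112 called genes given with values, 46 kept their call in all 6 fits without 1 library, 33 in 3 to 5 of them and 33 in fewer, and 0 changed sign under any alternative. SOD2, not called, had log2 fold changes of -0.11 with plain totals and from -0.03 (without green manure replicate 2) to 0.19 when single libraries were left out. Of the uncalled chlorophyll genes, plain totals gave DVR -0.07 and HEME -0.11, and single libraries left out gave HEME -0.01 (without green manure replicate 1) to 0.20 and PPO2 -0.49 to 0.02 (without green manure replicate 1). Several named genes lie under 5 CPM, where few reads limit the precision.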
